A study of Mus musculus with 4 samples.

Results

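The shared effect of electrical stimulation (ES) on dorsal root ganglion explants was read as the difference between both ES libraries and both control libraries, with the day of harvest as a block. Genes were kept where the mean over the 4 libraries was 1000 reads or more, which left 1357 of the 23282 gene rows. Of these, 644 had the same direction of ES minus control on both days, 310 of them higher and 334 lower in ES. The other 713 went opposite ways, 326 of them higher in ES at 11 DIV and lower at 19 DIV, and 387 lower at 11 DIV and higher at 19 DIV. The sign on both days selected the 644 genes, so their number in each direction is a description and not a test.

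The explants were ganglia of C57BL/6 mouse embryos at embryonic day 13. They stayed in growth medium for the first 8 days in vitro (DIV) and in myelination medium afterwards. ES cultures received 20 Hz at 50 mV/mm for 1 h at 10 DIV, and control cultures received no stimulation. The groups were ES at 11 DIV, control at 11 DIV, ES at 19 DIV and control at 19 DIV, each a single library made from 3 pooled explants, so harvest came 1 day or 9 days after stimulation. No group had a replicate. A model that keeps day as a block therefore has 1 residual degree of freedom, from how far the ES difference at 11 DIV departs from that at 19 DIV. It cannot tell noise between explant pools from an effect that depends on the day. The edgeR fit also draws each gene's error towards that of other genes, which had a median weight of 5.64 degrees of freedom. An SE or interval of that fit is thus not the spread of the gene's own 2 days. Libraries held 5782834 to 7830950 reads, of which the 1357 genes took 59.6% to 63.6%. Each of the 1357 genes had reads in all 4 libraries, the fewest being 12. Markers of neurons, Schwann cells and fibroblasts were read in every library. No macrophage, endothelial, perineurial, muscle, cartilage or erythroid marker reached a mean of 1000 reads. The 11 DIV control library stood apart from the other 3 in several lists and in Rn45s, with sums over every gene listed given beside those results, and its part in them was not tested. Macrophage markers summed to 78.1 and 145 CPM in the ES libraries of 11 and 19 DIV and to 193 and 87.0 CPM in their controls, with Aif1 and Cx3cr1 at 0. Endothelial markers summed to 82.4 and 66.6 CPM in ES and 109 and 117 CPM in control, with Pecam1, Cldn5, Tek, Tie1, Flt1 and Plvap at 0.

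Dorsal root ganglia hold the cell bodies of sensory neurons, which satellite glia wrap and whose axons Schwann cells ensheathe and, in myelination medium, can myelinate. Schwann cells need a basal lamina of laminins, collagen IV and nidogen for this, and fibroblasts of the ganglion lay down fibrillar collagens around it. Brief electrical stimulation of axons is studied as a way to aid nerve regrowth and myelination.

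No gene passed the test of a shared ES effect. By edgeR's quasi-likelihood test with Benjamini-Hochberg adjustment, 0 of the 10050 genes tested were called (0%), and the adjusted p was 1 for every gene. At an unadjusted p under 0.05 there were 109 genes (1.08%), among them 38 of the 1357 genes, 19 higher (background 0.408%) and 19 lower (background 0.677%). The limma voom fit also called 0 genes, with 566 at an unadjusted p under 0.05. DESeq2 with the same samples and terms called 503 of the 10050 genes (5%), of which 297 had 0 reads in at least 1 library, and gave 390 genes no adjusted p. At an unadjusted p under 0.05 DESeq2 had 1970 of the 10050 genes, 196 of them among the 1357. Among the 1357 genes DESeq2 called 53, 30 higher (2.09% of all genes were called higher) and 23 lower (2.92% of all genes were called lower). All 53 had the same direction and differed by at least 1.5-fold on both days. The additive model favours this, since differences that disagree between the days lower the shared effect and raise the residual. The median dispersion of the 1357 genes was 0.0665 in DESeq2 and 0.240 as edgeR's trend. Whether any gene was called thus turned on the tool, and the calls below are given with the tool named.

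The differences on the 2 days did not run together. Across the 1357 genes the log2 difference at 11 DIV and that at 19 DIV had a Pearson r of -0.13 and a Spearman rank correlation of -0.09, a description over genes, which are not independent replicates and share the scaling of the 4 libraries. The share of genes with the same direction was 47.5%, and it was 46.7% over all 10050 genes, of which 22.3% were higher and 24.3% lower on both days. The genes of 5000 or more reads, the best measured, had the same direction in 38.3% of 141 cases (23 higher and 31 lower), with an r of -0.24. The mean of the differences on the 2 days had an SD of 0.559 across the genes, against 0.640 for the departure of either day from that mean (log2). Over the 1357 genes the median difference was -0.07 at 11 DIV and 0.02 at 19 DIV on the log2 scale. Scaling by total counts alone moved the 11 DIV median to 0.06 and the split to 347 higher and 290 lower, so differences near 0 at 11 DIV are read relative to that shift.

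Genes that kept both direction and size were few. At least 1.5-fold on both days, 59 of the 1357 genes were higher in ES (11.9% of the 10050 genes were) and 50 were lower (13.1%), while 156 differed 1.5-fold in opposite directions (28.1%). At least 2-fold, 11 were higher (8.22%), 10 lower (9.14%) and 50 opposite (19.4%). The median SE in edgeR was 2.60 over the 10050 genes and 0.497 over the 1357, so a fold limit is not alike for these sets. The 59 and the 50 had fewer reads than most, with a median of the mean reads of 1346.5 and 1401 against 1759 over the 1357 genes, and 1 gene in each exceeded 5000 reads (Pdia3, a disulfide isomerase of the endoplasmic reticulum, higher, and the glycolytic enzyme Aldoa, lower). Pdia3 was named after its values were seen. The plot of the 2 days' differences shows the spread into all 4 quadrants.

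**Figure D1:**
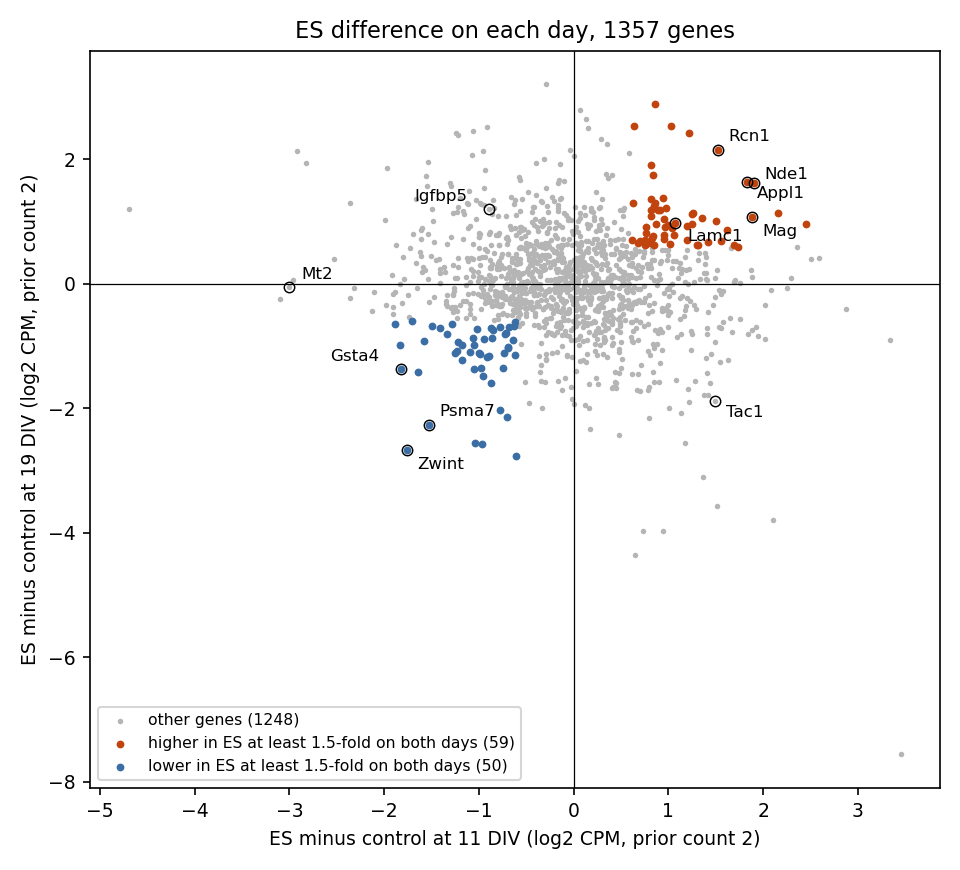
Log2 difference of ES minus control at 11 DIV (horizontal axis) and 19 DIV (vertical axis) for all 1357 genes that met the limit of 1000 reads. The 59 genes at least 1.5-fold higher in ES on both days are red, the 50 lower ones are blue, and all others are grey and fill all 4 quadrants.

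Appl1, Nde1 and Rcn1 were the genes that stood furthest above control on both days, ranked by the smaller of the 2 differences. Nde1, which links dynein to its regulator Lis1 at centrosomes and in migrating neurons, had 410.1 CPM in ES and 109 CPM in control at 11 DIV, and 538 CPM in ES and 176 CPM in control at 19 DIV. Both ES libraries lay above both control libraries. Naming genes by a large difference on both days favours such separation, here and below. The share of all genes without overlap between treatments was not counted, so it is a description only. The effect of Nde1 over both days was 1.76 ± 0.45 on the log2 scale (SE of the edgeR fit, as are all errors below). DESeq2 put its adjusted p at 4.01e-06, while edgeR called no gene. For genes named by a large difference on both days, here and below, that choice from the same libraries favours a small p in DESeq2. Rcn1, reticulocalbin 1, a calcium-binding protein of the endoplasmic reticulum, had 364 CPM in ES and 126 CPM in control at 11 DIV, and 534 CPM in ES and 119.7 CPM in control at 19 DIV, again with no overlap between treatments (1.84 ± 0.47, DESeq2 adjusted p 1.92e-05). Appl1, an adaptor protein of early endosomes, had 209.8 CPM in ES and 58.8 CPM in control at 11 DIV, and 293 CPM in ES and 93.6 CPM in control at 19 DIV, also without overlap (1.74 ± 0.57, DESeq2 adjusted p 0.000526). Nde1 lies on chromosome 16, positions 14163275 to 14192928 of GRCm38, and shares 77 bases with Marf1 on the other strand, and Marf1 was the lower gene in ES: 8 and 137 reads in the ES libraries of 11 and 19 DIV, and 330 and 311 reads in their controls.

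A further 7 genes filled the list of those furthest above control. Dlc1, which switches off small GTPases of the actin cytoskeleton, had 175 CPM in ES and 38.9 CPM in control at 11 DIV, and 372 CPM in ES and 169 CPM in control at 19 DIV. Its 19 DIV control library nearly matched its 11 DIV ES library, and its effect was 0.71 without the 11 DIV control library and 0.75 without the 19 DIV ES library. Values with a library left out, here and below, come from a fit without day, so differences between the days enter them. Gtf2h5, a subunit of the transcription and repair factor TFIIH, stood at 267 and 190.5 CPM in the ES libraries of 11 and 19 DIV and at 113 and 87.6 CPM in their controls. Cfdp1, a chromatin protein, stood at 342 and 259 CPM in ES and 133 and 125 CPM in control, and the zinc finger gene Zfp180 at 191 and 232 CPM in ES and 79.4 and 105 CPM in control. For Gtf2h5, Cfdp1 and Zfp180 neither ES library overlapped a control library. Ppp6r3, a regulatory subunit of protein phosphatase 6, had 303 and 199 CPM in ES and 149 and 34.0 CPM in control, with log2 effects of 1.18 to 1.78 across Gtf2h5, Cfdp1, Zfp180, Dlc1 and Ppp6r3. Without the 19 DIV control library the effect of Ppp6r3 was 0.75.

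Ddx3y, a Y-linked RNA helicase, had 241 CPM in ES and 103 CPM in control at 11 DIV, and 249 CPM in ES and 46.2 CPM in control at 19 DIV (1.83 ± 0.64). The labels do not give the sex of the embryos, and how many of the 3 pooled explants were male can differ between libraries. Of the other Y-linked genes, Eif2s3y differed in direction between the days, with 373 and 453 reads in the ES libraries of 11 and 19 DIV against 298 and 519 in their controls. Kdm5d was lower in ES, with 92 and 14 reads in ES and 124 and 145 reads in control. Uty had 206 reads in ES and 122 reads in control at 11 DIV and was listed at 0 at 19 DIV, and Xist was listed at 0 in all 4 libraries. The part of embryo sex in the Ddx3y difference was not tested.

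The largest lower values common to both days were those of Zwint and Psma7. Zwint, a kinetochore protein that also binds the synaptic protein Snap25, had 170.4 CPM in ES and 578 CPM in control at 11 DIV, and 74.9 CPM in ES and 481 CPM in control at 19 DIV. Psma7, an alpha subunit of the core proteasome, had 245 CPM in ES and 706 CPM in control at 11 DIV, and 109 CPM in ES and 526 CPM in control at 19 DIV. For both genes each ES library lay below each control library. The effects were -2.22 ± 0.48 for Zwint, with the smallest unadjusted p of all 10050 genes in edgeR's quasi-likelihood test and an adjusted p of 1, and -1.89 ± 0.44 for Psma7. DESeq2 gave an adjusted p of 1.69e-05 for each.

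Several enzymes were lower as well. Gsta4, a glutathione transferase that clears products of lipid peroxidation, had 88.3 CPM in ES and 312 CPM in control at 11 DIV, and 86.2 CPM in ES and 224 CPM in control at 19 DIV (-1.60 ± 0.55). Metap2, which trims the first methionine from nascent proteins, had 275 and 208 CPM in the ES libraries of 11 and 19 DIV and 622 and 484 CPM in their controls. Aldh2, the mitochondrial aldehyde dehydrogenase, had 186 and 113 CPM in ES and 444 and 243 CPM in control. In each of these 3 genes both ES libraries were below both controls. Swi5, of a recombination repair complex, had 244 and 194 CPM in ES and 574 and 411 CPM in control, and Sema4c, a transmembrane semaphorin, 94.0 and 51.7 CPM in ES and 194 and 304 CPM in control.

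Tubb4b, a beta-tubulin of axonemes and many cell types, and Fam166a overlap by 121 bases on opposite strands of chromosome 2, and the use of strand in counting is not given in the sources used here. Tubb4b had 285 and 168 CPM in the ES libraries of 11 and 19 DIV and 607 and 357 CPM in their controls. Fam166a had 173 and 102 CPM in ES and 539.5 and 273 CPM in control. Both genes were lower in both ES libraries, and reads of the pair cannot be told apart. Swi5 shares 692 bases with Golga2, which had 1058 and 819 reads in the ES libraries of 11 and 19 DIV and 587 and 1415 reads in their controls. Golga2 thus differed in direction between the days while Swi5 did not. Ppp6r3, Sema4c, Cct6a, Psmd13, Hspe1, Col5a1, Eif4a2, Sod1, Nefm, Uchl1 and Map1a also share bases with a gene on the other strand, as do Timp3, Eif2s2, Mt2 and Tuba1b described further on, so their counts may carry the same limit. It depends on where in each gene the shared bases lie, which was not examined.

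**Figure D2:**
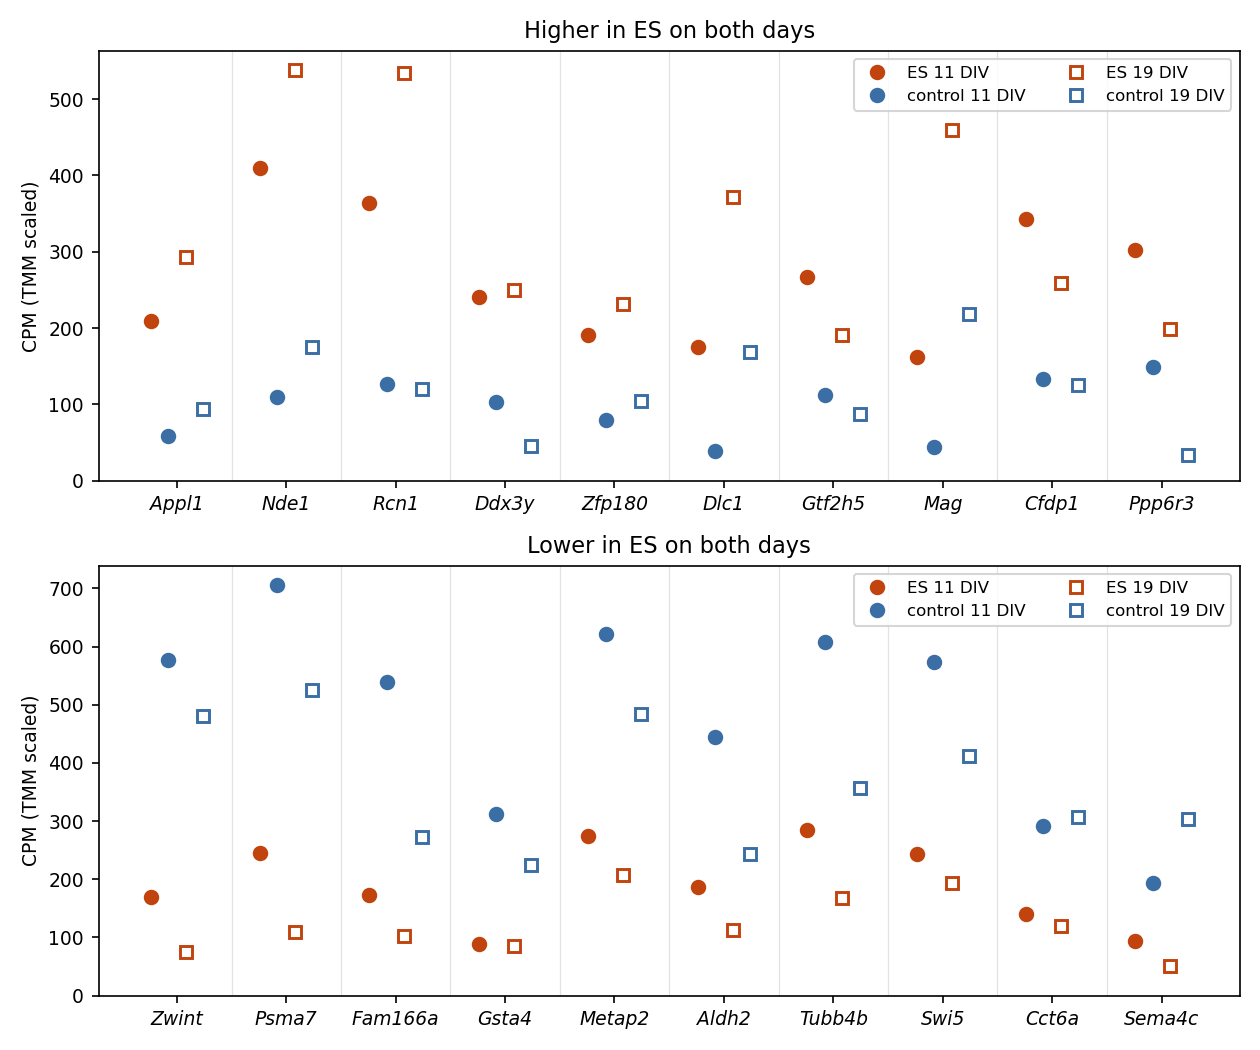
CPM in each of the 4 libraries (points, 1 library each) for the top 10 genes of each direction, ranked by the smaller of the 2 days' differences, ES in red and control in blue, filled circles for 11 DIV and open squares for 19 DIV. In every gene the ES point lies on the same side of its own day's control, since that chose the gene, and Dlc1 and Mag show control libraries of 19 DIV close to or above the ES libraries of 11 DIV.

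The promoters of 4 of these genes are shown because they belong to the 20 genes furthest from control on both days and hold several of the motifs searched. They were picked for their motifs and do not stand for the 20. Ppp6r3 and Tubb4b, not shown, hold as many or more, while Ddx3y and Fam166a hold none. RefSeq entries for GRCm38.p6 covered 42 of the 59 higher and 39 of the 50 lower genes. The runs are the 250 bases before the start, 5′ to 3′ on the gene's strand, and capitals mark the motifs searched on both strands, which were CCAAT, the GC box GGGCGG, the cyclic AMP response element TGACGTCA, the antioxidant response core TGACNNNGC, TATAAA and the E-box CACGTG. In Psma7 the GC boxes 47 and 43 bases before the start overlap and run together, as do the CCAAT box and the antioxidant response core of Nde1.
Nde1, chr16:14163025-14163274, plus strand: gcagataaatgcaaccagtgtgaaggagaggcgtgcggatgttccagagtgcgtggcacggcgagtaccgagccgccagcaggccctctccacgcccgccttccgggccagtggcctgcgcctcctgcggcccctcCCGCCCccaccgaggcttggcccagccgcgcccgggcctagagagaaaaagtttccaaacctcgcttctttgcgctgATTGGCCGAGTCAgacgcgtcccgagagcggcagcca
Zwint, chr10:72654596-72654845, plus strand: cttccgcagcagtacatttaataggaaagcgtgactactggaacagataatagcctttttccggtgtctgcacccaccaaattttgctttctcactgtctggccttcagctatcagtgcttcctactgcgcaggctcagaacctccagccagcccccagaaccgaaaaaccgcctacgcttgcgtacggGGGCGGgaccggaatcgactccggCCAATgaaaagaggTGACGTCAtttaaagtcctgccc
Psma7, chr2:180042465-180042714, minus strand: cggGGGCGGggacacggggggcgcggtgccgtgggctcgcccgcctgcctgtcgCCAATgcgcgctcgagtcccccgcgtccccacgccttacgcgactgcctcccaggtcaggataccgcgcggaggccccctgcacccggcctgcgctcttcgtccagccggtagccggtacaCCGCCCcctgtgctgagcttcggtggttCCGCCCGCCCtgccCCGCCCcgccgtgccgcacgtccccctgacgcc
Cct6a, chr5:129787106-129787355, plus strand: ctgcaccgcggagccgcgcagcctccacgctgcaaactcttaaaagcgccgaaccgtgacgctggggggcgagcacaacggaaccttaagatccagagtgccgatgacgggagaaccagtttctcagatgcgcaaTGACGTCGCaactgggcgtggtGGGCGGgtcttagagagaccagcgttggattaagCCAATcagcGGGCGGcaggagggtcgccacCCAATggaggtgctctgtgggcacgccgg

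Zwint carries a CCAAT box 37 bases and a full cyclic AMP response element 23 bases before the start, and Cct6a CCAAT boxes 59 and 29 bases before it. Psma7 holds 5 GC boxes and a CCAAT box 196 bases before its start. Over all promoter entries of each set, CCAAT stood in 42.3% of the 52 entries of the lower genes, 32.8% of the 58 entries of the higher genes, 34.1% of the 1329 entries of all genes over 1000 reads and 33.9% of all 32851 entries. The GC box stood in 61.5%, 55.2%, 58.8% and 32.7% of the same sets. The cyclic AMP response element, whose factors answer to activity and calcium in neurons, stood in 3.85% of the entries of the lower genes (2 entries), in 0 of the 58 entries of the higher genes, in 2.71% of those of all genes over 1000 reads and in 1.55% of all. The antioxidant response core stood in 11.5%, 10.3%, 14.2% and 10.2% of the same 4 sets, TATAAA in 7.69%, 5.17%, 7.52% and 12.4%, and CACGTG in 5.77%, 12.1%, 9.86% and 6.02%. These shares describe letters in these windows.

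**Figure D3:**
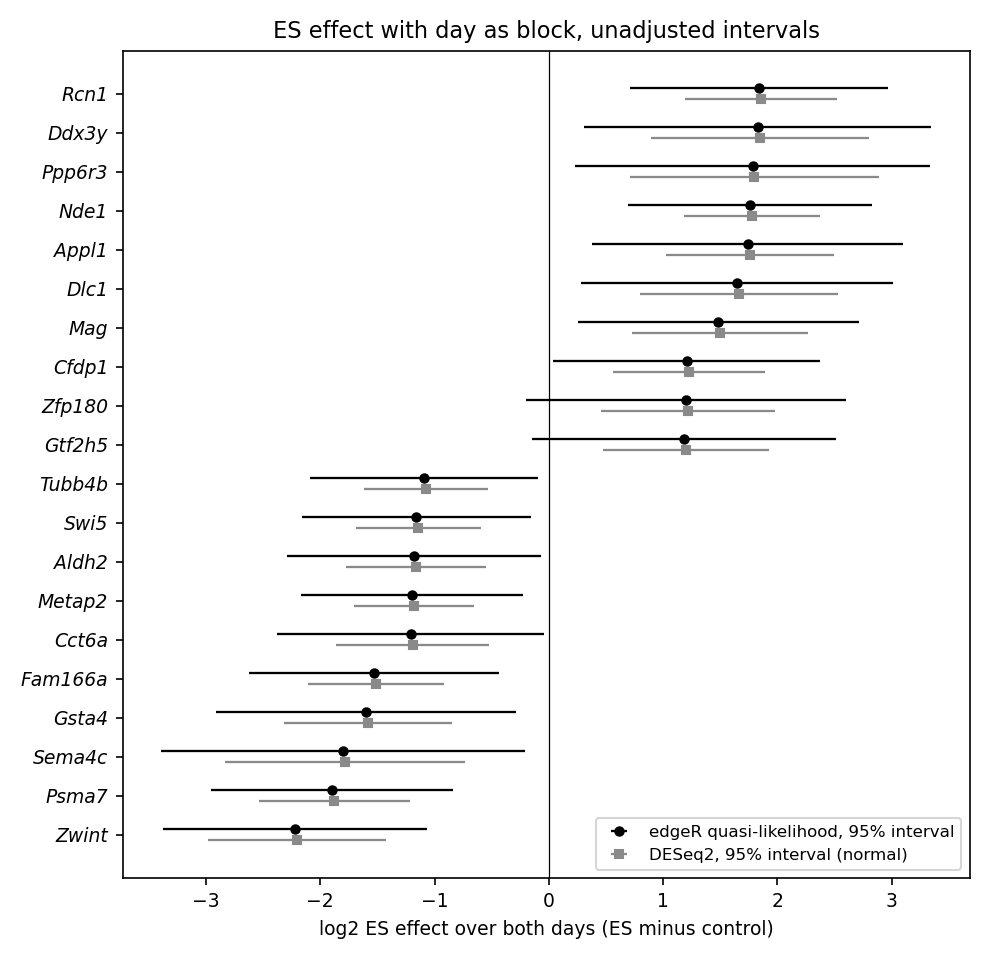
Log2 ES effect over both days, with day as block, for the same 20 genes, from edgeR (black, 95% interval) and DESeq2 (grey, 95% interval of a normal error). Both tools place each gene at nearly the same effect, while the edgeR intervals are wider and those of Zfp180 and Gtf2h5 include 0.

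In the gene lists no member passed edgeR's test, so each list is described by its counts and medians. Genes of the basal lamina leaned towards ES on both days. Of 14 members with at least 1000 reads, 9 were higher on both days, 1 was lower and 4 differed between the days, beside 310, 334 and 713 of the 1357 genes. The median difference was 0.48 at 11 DIV and 0.46 at 19 DIV, and the median effect 0.38, against -0.03 over the 1357 genes. Lamc1, the laminin gamma chain of Schwann cell basal lamina (chromosome 1, 153218922 to 153332786), had 589 CPM in ES and 280.3 CPM in control at 11 DIV, and 1005 CPM in ES and 509 CPM in control at 19 DIV. Each ES library exceeded both controls. Its effect was 1.03 ± 0.39, and its adjusted p was 1 in edgeR and 0.00286 in DESeq2. Serpinh1, the collagen chaperone, had 897 and 1273 CPM in ES and 555 and 882 CPM in control at 11 and 19 DIV (0.61 ± 0.39). Without the 11 DIV control library the effects were 0.66 for Lamc1 and 0.31 for Serpinh1, and without the 19 DIV ES library they were 0.57 and 0.32. Col4a1, Col4a2, Lamb1, Nid1, Hspg2 (perlecan), Itga6 and Col18a1 were the other members higher on both days. Hspg2 differed by 0.49 on each day while Col4a2 differed by 0.07 and 0.19. Sparc, the most abundant member, had 7017 CPM in ES and 5644 CPM in control at 11 DIV, and 7460 CPM in ES and 8631 CPM in control at 19 DIV, so its direction differed between the days.

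Fibroblast and fibrillar collagen genes had 6 of 12 members higher on both days, 0 lower and 6 opposite, with medians of 0.37 at 11 DIV and 0.65 at 19 DIV. Dcn, the collagen-binding proteoglycan decorin, had 483 CPM in ES and 241 CPM in control at 11 DIV, and 617 CPM in ES and 320.5 CPM in control at 19 DIV (0.97 ± 0.40). Col5a1, the chain that starts type I fibrils, had 677 and 714 CPM in ES and 253 and 446.5 CPM in control (1.05 ± 0.42). In both genes the ES libraries stood above both controls, and DESeq2 gave adjusted p values of 0.0112 and 0.0295 while edgeR gave 1. Col1a1 was at 1807 and 3760 CPM in ES and at 1324 and 2518 CPM in control (0.51 ± 0.43), and Col1a2 at 3183 and 6130.4 CPM in ES and at 2119 and 4958 CPM in control (0.45 ± 0.49). For both, the 11 DIV ES library was below the 19 DIV control. Vim was 0.59 higher at 11 DIV and at -0.01 at 19 DIV. The whole list of 28 genes summed to 15198 CPM in ES and 12376 CPM in control at 11 DIV and to 24358 CPM in ES and 18673 CPM in control at 19 DIV. In explants pooled whole, more cells of a type and more RNA per cell cannot be told apart, here and for the lists below. Mural markers, of which only Mcam reached 1000 reads, summed to 206 and 392 CPM in ES and 96.2 and 260.1 CPM in control, with Des, Higd1b, Kcnj8 and Abcc9 at 0, and their part in the matrix results was not tested. Mcam also belongs to the Schwann lineage list and Pdgfrb to the fibroblast list, so the sum does not stand for mural cells alone.

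Myelin genes divided. Of 12 members, 5 were higher on both days (Prx, Mag, Cadm4, Gldn and Sirt2, at log2 effects of 0.92 to 1.48), 0 were lower and 7 went opposite ways, with a median of 1.27 at 11 DIV and -0.08 at 19 DIV. Mag, the adhesion protein of the inner myelin loop, had 162 CPM in ES and 43.6 CPM in control at 11 DIV, and 459.9 CPM in ES and 218 CPM in control at 19 DIV (1.48 ± 0.51, DESeq2 adjusted p 0.00905). Its level differed more between the days than between treatments, and its effect was 0.53 without the 11 DIV control library and 0.30 without the 19 DIV ES library. Cadm4, a Schwann cell partner of axonal adhesion proteins, had 253 and 367 CPM in ES and 121 and 213 CPM in control (0.92 ± 0.47), with both ES libraries above both controls. Mbp and Pmp22, of compact myelin, differed in direction between the days. Mbp, a membrane-compacting protein of myelin, was at 1168 and 1043 CPM in ES and 841 and 1548 CPM in control, and Pmp22, a tetraspan protein of compact myelin, at 500.0 and 988 CPM in ES and 321 and 1213 CPM in control. Both were higher in ES at 11 DIV and lower in ES at 19 DIV. Pmp2, a lipid carrier of peripheral myelin outside the list, was among the genes at least 1.5-fold higher on both days, with 188 and 433 CPM in ES and 60.9 and 238 CPM in control (DESeq2 adjusted p 0.0277). It was named after its values were seen. Sox10, the transcription factor of the Schwann lineage, was at 634 and 729.6 CPM in ES and 729 and 734 CPM in control, and the Schwann lineage list had 2 members higher, 4 lower and 3 opposite, with medians of 0.12 at 11 DIV and -0.14 at 19 DIV.

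Lists of protein breakdown and folding had more members lower than higher on both days. The proteasome list had 0 of 18 members higher on both days, 9 lower and 9 opposite, with medians of -0.72 at 11 DIV and -0.21 at 19 DIV. The 11 DIV control library stood apart, since the whole list summed to 7473 and 6915 CPM in the ES libraries of 11 and 19 DIV and to 12493 and 7371 CPM in their controls. Besides Psma7, Psmd13, of the regulatory particle, had 191 and 121 CPM in ES and 433 and 241 CPM in control (-1.09 ± 0.47, DESeq2 adjusted p 0.0224). It shares 342 bases with Sirt3, which had 491 and 107 reads in the ES libraries and 0 and 665 reads in their controls. Both ES libraries of Psmd13 lay below both controls, and its effect was -0.62 without the 11 DIV control library. Heat shock proteins and chaperonins had 2 of 15 members higher, 8 lower and 5 opposite, with medians of -0.57 and -0.30, and summed to 7699 and 6665 CPM in ES and 10704 and 7633 CPM in control. Cct6a, a subunit of the chaperonin that folds actin and tubulin, had 140.3 CPM in ES and 291 CPM in control at 11 DIV, and 119 CPM in ES and 307 CPM in control at 19 DIV (-1.21 ± 0.49). Hspe1, the mitochondrial co-chaperonin, had 128 and 92.9 CPM in ES and 242 and 211 CPM in control (-1.05 ± 0.55), while its neighbour Hspd1, which shares 112 bases with it, had 1220 and 932 reads in ES and 629 and 937 reads in control. In Cct6a and Hspe1 the ES and control libraries did not overlap. Hsp90ab1, the most abundant, was at 2604 and 2467 CPM in ES and 4273 and 2322 CPM in control.

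Cytosolic ribosomal protein genes had 6 of 61 members higher on both days, 27 lower and 28 opposite. Their medians were -0.41 at 11 DIV and -0.01 at 19 DIV, so the median difference was near 0 at 19 DIV. The list summed to 35658 and 28779 CPM in ES and 47124 and 28164 CPM in control at 11 and 19 DIV. Ribosomal protein genes have many processed copies in the genome, and how reads that match several places were counted is not given in the sources used here. Rpl6, of the large subunit, had 299 CPM in ES and 556 CPM in control at 11 DIV, and 235 CPM in ES and 526 CPM in control at 19 DIV (-1.03 ± 0.41, DESeq2 adjusted p 0.0141), and was the member furthest below control on both days. Rps16 followed with 663 and 385 CPM in ES and 884 and 607 CPM in control (-0.53 ± 0.39, and -0.21 without the 11 DIV control library). Rps20, the most abundant, was lower in ES at 11 DIV (1826 against 2535 CPM in control) and higher in ES at 19 DIV (1452 against 1096 CPM in control). Of the 25 translation factors 3 were higher, 9 lower and 13 opposite, with medians of -0.39 and 0.03, and Eif2s2, a subunit of the factor that brings in the initiator tRNA, had 767 and 611 CPM in ES and 1198 and 815 CPM in control (-0.53 ± 0.39). Eif4a2, an RNA helicase of initiation, had 84.4 and 150.3 CPM in ES and 208 and 197 CPM in control, and Tpt1, the most abundant, 2708 and 2156 CPM in ES and 4182 and 1947 CPM in control. Rn45s, the ribosomal RNA precursor and the most abundant row, had 30462 CPM in ES and 56028 CPM in control at 11 DIV, and 26196 CPM in ES and 27803 CPM in control at 19 DIV. Rn45s thus differed in the same direction as the ribosomal protein genes, mainly at 11 DIV, and its part in them was not tested.

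Glycolysis and hypoxia genes had 0 of 11 members higher on both days, 5 lower and 6 opposite (medians 0.04 at 11 DIV and -0.49 at 19 DIV). Aldoa, the muscle-type aldolase that most tissues use, had 1029 CPM in ES and 1585 CPM in control at 11 DIV, and 354 CPM in ES and 782 CPM in control at 19 DIV (-0.88 ± 0.40, DESeq2 adjusted p 0.0378). The 11 DIV ES library exceeded the 19 DIV control, so Aldoa differed within days only. Pkm, pyruvate kinase, had 659 and 399 CPM in ES and 1409 and 560.4 CPM in control. Without the 11 DIV control library the effect was -0.18 for Aldoa and -0.08 for Pkm. The oxidative stress list had 2 of 17 members higher, 5 lower and 10 opposite, with medians of -1.25 at 11 DIV and 0.10 at 19 DIV, and summed to 12246 and 8696 CPM in ES and 40149 and 8011 CPM in control. Sod1, the cytosolic superoxide dismutase, had 595 and 532 CPM in ES and 1033 and 788 CPM in control (-0.68 ± 0.39), with no overlap between treatments. Mt2 and Mt1, the metallothioneins, differed at 11 DIV, where Mt2 had 1175 CPM in ES and 9448 CPM in control, and hardly at 19 DIV, where it had 663 CPM in ES and 691 CPM in control. Mt2 met the rule on direction with a difference of -0.06 at 19 DIV, and Mt1, at 0.07, did not. Cell cycle genes had 0 of 9 members higher, 4 lower and 5 opposite. H2afz was at 386 and 257 CPM in ES and 542 and 337 CPM in control, Tuba1b at 1975 and 933 CPM in ES and 2138 and 1351 CPM in control, and Tubb5 at 1545 and 1525 CPM in ES and 2249 and 1608 CPM in control. None of the 4 lower cell cycle members reached 1.5-fold on both days.

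Neuronal genes shared little between the days. Of 10 pan-neuronal markers 1 was higher on both days, 2 were lower and 7 went opposite ways, with medians of 0.66 at 11 DIV and -1.42 at 19 DIV. Nefm, a neurofilament subunit, had 456 and 186 CPM in ES and 584 and 497 CPM in control (-0.89 ± 0.46), and Uchl1, a neuronal deubiquitinase, 406 and 337 CPM in ES and 481 and 494 CPM in control (-0.40 ± 0.40). Nefm overlaps Nefl in the annotation by 5233 bases. Nefl had 1093 and 572 reads in ES and 767 and 2656 reads in control. Calca, which encodes the pain-related peptide CGRP, was the member of the neuronal lists furthest below control on both days, at 409 CPM in ES and 748 CPM in control at 11 DIV and at 322 CPM in ES and 973 CPM in control at 19 DIV (-1.23 ± 0.42, DESeq2 adjusted p 0.00806), with both ES libraries below both controls. Vgf, a secreted neuronal precursor, had 131 and 42.5 CPM in ES and 199 and 291 CPM in control (-1.69 ± 0.75). Tac1, the substance P precursor made by many of the same neurons, had 1679 CPM in ES and 595 CPM in control at 11 DIV, and 310.4 CPM in ES and 1142 CPM in control at 19 DIV. Prph, a filament protein of these neurons, had 1207 CPM in ES and 675 CPM in control at 11 DIV, and 343 CPM in ES and 915 CPM in control at 19 DIV. The pan-neuronal list of 25 genes summed to 7166 CPM in ES and 4659 CPM in control at 11 DIV and to 2609 CPM in ES and 6130.1 CPM in control at 19 DIV, so Calca was lower in ES at 11 DIV while the neuronal sum was higher. Axonal cytoskeleton genes had 3 of 15 members higher, 5 lower and 7 opposite. Map1a was at 139 and 269 CPM in ES and 355 and 324 CPM in control, Dpysl2 at 398 and 228 CPM in ES and 139 and 196 CPM in control, and Tuba1a at 2344 and 1486 CPM in ES and 2643 and 2366 CPM in control. Tuba1a and Tuba1b are close copies of each other, so their counts may share reads.

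**Figure D4:**
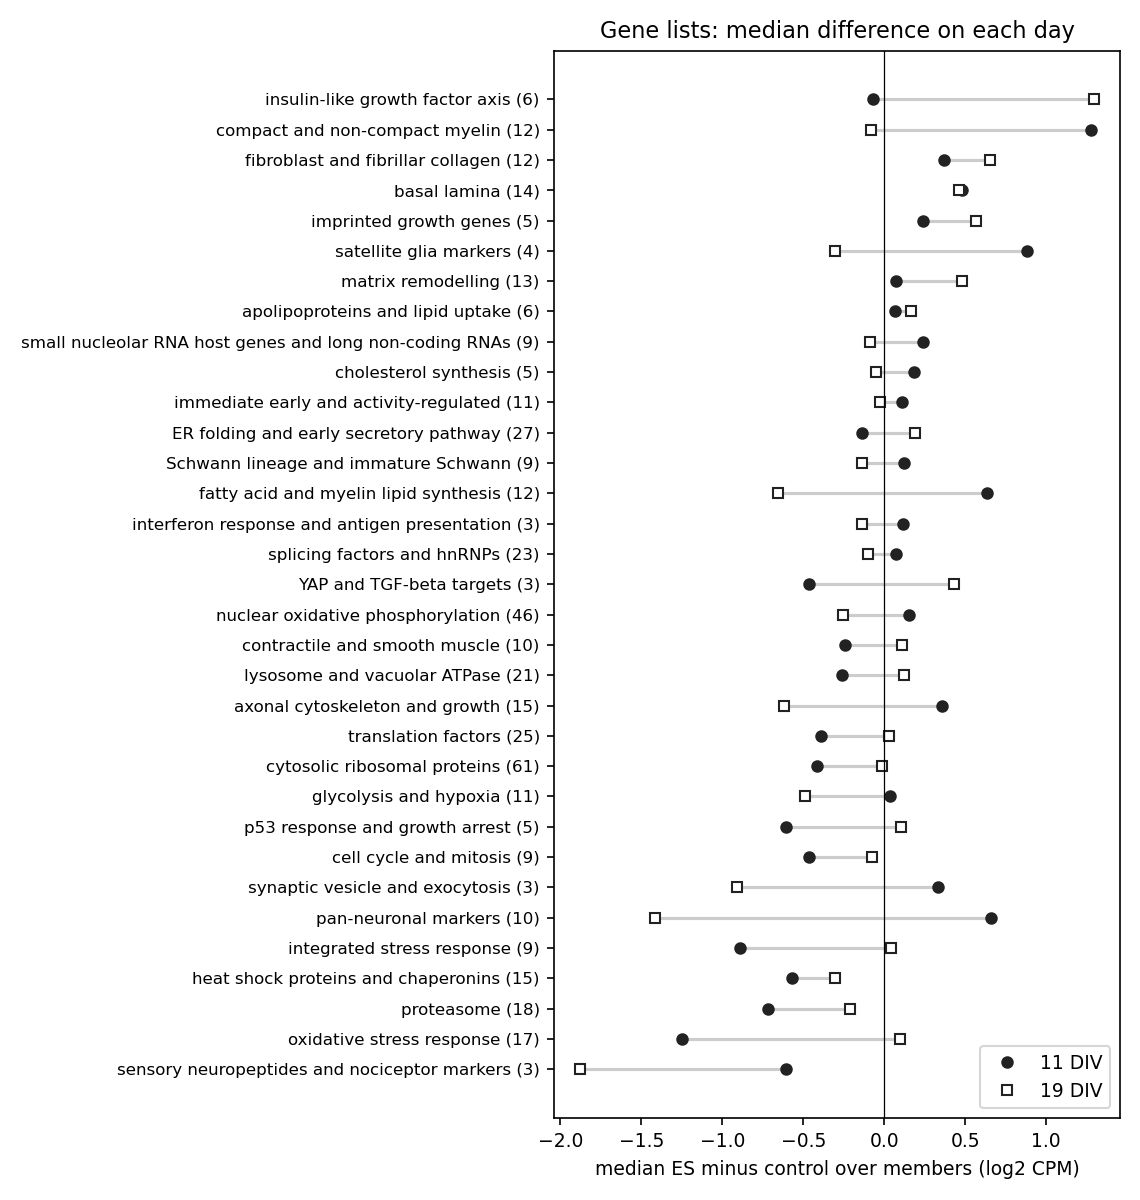
Median log2 difference of ES minus control over the members of each gene list with at least 1000 reads (number in parentheses), at 11 DIV (filled circles) and 19 DIV (open squares). Of the 33 lists with 3 or more members, 5 had a median above 0 on both days, 5 had one below 0 on both days and 23 had medians on opposite sides, with the basal lamina medians of 0.48 and 0.46 lying closest together among those above 0.

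Matrix remodelling genes had 5 of 13 members higher, 2 lower and 6 opposite (medians 0.07 at 11 DIV and 0.48 at 19 DIV). Cd44, a hyaluronan receptor, had 599 and 391 CPM in ES and 383 and 266 CPM in control (0.60 ± 0.40), while Lgals1, galectin 1, had 1456 and 906 CPM in ES and 2055 and 1261 CPM in control (-0.49 ± 0.40). In Lgals1 the ratio of ES to control was 0.709 and 0.718 on the 2 days, and its effect was -0.09 without the 11 DIV control library. Timp3, a protease inhibitor bound to matrix, had 1154 and 2551 CPM in ES and 1075 and 1827 CPM in control. In the insulin-like growth factor list 3 of 6 members were higher, 1 was lower and 2 were opposite (medians -0.07, or 0.06 with scaling by total counts, and 1.30), with Igf1r, the receptor, at 352 and 321 CPM in ES and 196 and 208 CPM in control (0.74 ± 0.45) and Igf2bp2, an RNA-binding protein, at 165 and 172 CPM in ES and 201 and 207 CPM in control. Igf1r had both ES libraries above both controls.

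Of the 10 most abundant genes with the same direction on both days, Mt2, Rn45s, Col1a1, Col1a2 and Timp3 are described above. Marcks, an actin regulator, had 1628 and 2282 CPM in ES and 1073 and 2062 CPM in control. S100a6, a calcium-binding protein of glia and fibroblasts, had 3032 and 3894 CPM in ES and 2902 and 3162 CPM in control. Dbi, the acyl-CoA binding protein, had 2990 and 3104 CPM in ES and 3413 and 3386 CPM in control, Map4k4, a kinase, 2416 and 2035 CPM in ES and 2683 and 2220.0 CPM in control, and Wdr89 2268 and 1860 CPM in ES and 3031 and 2100.0 CPM in control. The effects of Marcks, S100a6, Dbi, Map4k4 and Wdr89 lay between -0.30 and 0.37 with errors of 0.42 to 0.46, so each was smaller than its own error. Genes induced early by neuronal activity, a response known to be brief, had 1 of 11 members higher on both days, 1 lower and 9 opposite, with medians of 0.11 and -0.02.

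In the other lists with at least 3 members, members with opposite directions on the 2 days were the most numerous class in most cases. Nuclear oxidative phosphorylation genes had 7 of 46 higher on both days, 7 lower and 32 opposite. Splicing factors had 6 of 23 higher, 6 lower and 11 opposite, early secretory genes 6, 7 and 14 of 27, and lysosomal genes 3, 5 and 13 of 21. Fatty acid synthesis genes had 1, 2 and 9 of 12, contractile genes 1, 0 and 9 of 10, long non-coding and host genes 2, 2 and 5 of 9, the integrated stress response 0, 2 and 7 of 9, and apolipoproteins and lipid uptake 1, 0 and 5 of 6. Lists of 3 to 5 members were cholesterol synthesis (2 higher, 1 lower, 2 opposite), imprinted growth genes (2, 1 and 2), p53 response (0, 2 and 3), satellite glia (1, 1 and 2), synaptic vesicle genes (0, 1 and 2), YAP and TGF-beta targets (1, 0 and 2), nociceptor and peptide genes (0, 2 and 1) and interferon response (0, 0 and 3).

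Near the limit of 1000 reads, Nab2 (1000.25 mean reads) and Hspb1 (1000.75) were among the last genes inside, and Fst (999.5), Lig1 (999.25) and Ola1 (999.0) the first outside. Of these Hspb1 had the same direction on both days, as did Fst and Ola1. Fst, the activin inhibitor follistatin, had 641 and 2434 reads in the ES libraries of 11 and 19 DIV and 170.0 and 753 reads in their controls, a log2 difference of 1.87 and 1.48 on the 2 days, and lay just outside.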

How the data were processed

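RNA of 4 pools of explants was made into 3′ tag libraries by QuantSeq, as the labels' protocols state. Bowtie2, bedtools and build mm10 are named in the submitters' processing notes, and no version, duplicate handling or strand setting is given in the sources used here. What the authors deposited is 1 table per library of whole-number read counts by gene symbol, not normalized. Repeated symbols, 35 on 79 rows, were not merged. Reads are not unique molecules.

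Counts were scaled by TMM and given as CPM. The shared effect was tested by edgeR 4.0.16 (R 4.3.3) with its quasi-likelihood test, ES and day being additive terms, on the genes kept by filterByExpr, with Benjamini-Hochberg adjustment over all of them at a threshold of 0.05. Since each treatment and day is 1 library, p-values rest only on these 4 libraries and on error shared across genes. They do not measure a spread between replicates. The SE is the effect divided by the root of its F. Differences within a day are in log2 CPM with a prior count of 2. Alternatives were DESeq2 1.42.0, voom in limma 3.58.1, further scalings and read minimums, the omission of day, of Rn45s or of a library, and thinning of every library to the lowest total. Promoters are from RefSeq on GRCm38.p6 without chromosome 18, which was left out of every set counted, that of all entries included. Gene positions are those of GENCODE M21 (GRCm38, which is mm10), where 1323 of the 1357 genes occur once. Figures used matplotlib 3.10.9 in Python 3.11.15.

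The members and the 39 gene lists were chosen with earlier results of these data known. Genes were named, among those of 1000 or more reads with the same direction on both days, if called by edgeR, if among the 10 per direction with the largest smaller-of-2-days difference, or if among the 5 per direction with the most reads. Per list described, up to 2 members by that difference and the most abundant member were added, as were reference genes of the tissue. Some genes that these rules name are not reported here. Lists without a member of 1000 reads were macrophage, endothelial, perineurial, skeletal muscle and cartilage, and erythroid markers.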

Additional observations from a re-analysis of the deposited data

Results flagged for a closer look

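The following genes, all measured at 1000 reads or more, are given because ES minus control had opposite signs at 11 DIV and 19 DIV (log2 CPM). With 1 library per treatment and day, the difference between the days was not tested.

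Glial genes and lipid carriers among them were higher in ES at 11 DIV and lower in ES at 19 DIV. Pmp22 differed by 0.64 at 11 DIV and -0.30 at 19 DIV, Mbp by 0.47 and -0.57, and Apoe, the lipid carrier of glia, by 1.16 and -0.51. Sensory neuron genes had the same order of signs, with Prph at 0.84 and -1.41 and Tac1 at 1.497 and -1.88. Matrix and mesenchymal genes differed less, with Sparc at 0.31 and -0.21, Vim at 0.59 and -0.0088 and Timp2 at 0.071 and -0.10.

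Other genes were lower in ES at 11 DIV and higher in ES at 19 DIV. Mt1 differed by -2.96 at 11 DIV and 0.068 at 19 DIV, and Igfbp5, an insulin-like growth factor binding protein, by -0.89 and 1.20. Hsp90ab1 was at -0.71 and 0.088, Tpt1 at -0.63 and 0.15, and Rps20 at -0.47 and 0.41. For Vim, Mt1, Hsp90ab1 and Timp2 the smaller of the 2 values lay within 0.1 of 0.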

How the results depend on the processing

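The absence of calls held in edgeR under 3 other scalings, 2 other read minimums, without Rn45s, with no replicate block (day left out) and without each library in turn, and in limma voom, each with 0 genes called. With DESeq2 503 genes were called, 53 of them with 1000 reads or more. The cause of that difference between tools was not tested. The smallest adjusted p with a library left out was 0.183. No paired analysis beyond the day block was possible because each treatment and day is 1 library, and the replicate number carries no other pairing. With day kept, leaving out a library leaves 1 day's difference and no residual degree of freedom, so those fits left out day, and the directions on both days could not be recomputed without a library.

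The share of genes with the same direction stayed within the 95% binomial interval of the main count under all 7 alternatives. That interval treats genes as independent, which they are not. The alternatives also reuse the same 4 libraries, so this is a description. Counts of large differences moved with the read limit by construction, as fewer or more genes entered. At 500 reads there were 212 genes 1.5-fold higher, 174 lower and 499 opposite, and 75, 63 and 201 at 2-fold. At 2000 reads there were 14, 15 and 38 at 1.5-fold and 1, 5 and 12 at 2-fold. Lists with a median above 0 on both days numbered 9 at 500 reads, against 5. These were not all the same lists. Those that joined at 500 reads included myelin (1.31 at 11 DIV and 0.25 at 19 DIV), Schwann lineage (0.16 and 0.15) and early activity genes (0.14 and 0.18). Apolipoproteins and lipid uptake (-0.27 and 0.17) and imprinted growth genes (0.24 and -0.52) left. From those below 0 on both days, ribosomal protein (-0.41 and 0.0041) and nociceptor genes (0.017 and -1.88) left, and glycolysis genes (-0.11 and -0.49) joined. Of the 109 genes that differed 1.5-fold the same way, 99 did so with scaling by total counts and 108 or 109 under the other scalings.

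Of the 72 genes named, those with effects near 0 changed sign. Timp2 became 0.0043 with DESeq2 size factors in edgeR, 0.048 with total counts and 0.0043 in DESeq2, Mbp 0.014 and Rps20 0.029 with total counts, Pmp22 -0.045 and Tac1 0.20 with no replicate block, and Sparc -0.0022 and Pmp22 -0.023 in limma voom. In the fits without day, the effects of 39 of the 72 moved by over 1.5 times without the 11 DIV control library, 32 without the 11 DIV ES library, 32 without the 19 DIV control library and 31 without the 19 DIV ES library, against 9 with all libraries. Without the 11 DIV control library 30 of its 39 came closer to 0. None of the 20 genes furthest from control changed sign in these fits, and 6, 1, 3 and 2 of them moved by over 1.5 times without these libraries in that order. These 20 were chosen from the same libraries by a large difference on both days, which favours keeping the sign. Of the 72 named genes, 13 had opposite directions on the 2 days, so leaving out 1 day had to reverse their sign. With 1 library or 1 day left out, 23 of the 72, these 13 among them, changed sign at least once. Their log2 effects then ran over Map4k4 -0.27 to 0.011, Marcks -0.067 to 0.86, Sparc -0.25 to 0.36, Pmp22 -0.69 to 1.21, Timp2 -0.11 to 0.093, Tpt1 -0.78 to 0.33, Tuba1b -0.89 to 0.18, Rn45s -0.99 to 0.035, Hsp90ab1 -0.75 to 0.14, Vim -0.10 to 0.70, Rps20 -0.63 to 0.59, Col1a2 -0.16 to 1.13, Apoe -0.51 to 1.16, Mt2 -3.36 to 0.42, Mt1 -3.06 to 0.18, Sox10 -0.21 to 0.013, Prph -1.41 to 0.84, Mbp -0.57 to 0.47, Tac1 -1.88 to 1.497, Igfbp5 -0.89 to 1.20, Timp3 -0.33 to 0.83, Col1a1 -0.092 to 1.07 and S100a6 -0.0028 to 0.38. With 1 library per treatment and day, no gene over 1000 reads with a log2 effect under 0.97 in size reached an unadjusted p under 0.05 in edgeR's test, while DESeq2 called such genes down to an effect of 0.75 in size.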
